A study of Saccharomyces cerevisiae with 2 samples.

Results

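Fuzzy nucleosomes, whose reads are spread widely around a common centre, were examined on chromosome III of budding yeast. They were taken as the 15% of positions with the highest mean of forward-strand and reverse-strand read variance in the single-end list of total chromatin, which gave 282 of 1881 positions. The 282 positions with the lowest mean variance served as well-placed nucleosomes, and 1317 positions lay between the classes. The whole series holds 8357 positions in 4 lists, a paired-end and a single-end list for each of 2 libraries. The libraries came from strain yFR212 in the W303 background, which is MATa, psi+ and GAL+ and carries ura3-1, his3-11,15, can1-100, trp1-1, ade2-1 and a mutant allele of leu2. Both libraries also share a tag of 3 Myc epitopes on HTZ1, the gene of the histone variant H2A.Z, so total chromatin is that of tagged cells. Yeast grown in YPD was fixed with 1% formaldehyde at an optical density of 0.8. Micrococcal nuclease (MNase), which cuts linker DNA, acted for 20 minutes at 37 °C in several amounts, and the labels do not say which amount was sequenced. The total library was made from all mononucleosomes, and the other, H2A.Z, from mononucleosomes pulled down by an anti-Myc antibody, without a measure of the background carried along, so a position in its lists need not carry H2A.Z. Each group is a single library, so differences between libraries or classes lack replicates and no test was made. Intervals are 95% intervals over positions, which cover counting error only and treat neighbouring positions as independent.

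A nucleosome is a histone octamer wrapped by DNA, and MNase leaves the wrapped DNA as a fragment. Where the octamer sits at the same bases in most cells, the fragment ends pile up sharply and the nucleosome is called well placed or phased. Where it sits at different bases in different cells, the ends scatter and the nucleosome is called fuzzy. In yeast, well-placed nucleosomes are known from the borders of nucleosome-depleted promoters, where H2A.Z is commonly incorporated, and placement is known to become looser with distance into the gene body. The positions here were not assigned to genes, because the lists use build sacCer2 and the gene table at hand is of another assembly.

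The values that chose the members are given as a description. Fuzziness is expressed as the SD in bp, the square root of the mean of both strand variances. It ranged from 37.9 to 77.3 bp in the fuzzy positions with a median of 40.8 bp, and from 13.8 to 23.7 bp in the well-placed positions with a median of 21.6 bp. The limit cut through a continuous range. The 3 members just inside it, centred at 284718, 100645 and 3216, had mean variances of 1439, 1438 and 1435 squared bp. The 3 positions just outside, at 230268, 122150 and 271824, had 1435, 1431 and 1430 squared bp. Both strands contributed alike, with a median SD of 41.4 bp on the forward and 41.3 bp on the reverse strand. The larger strand variance exceeded the smaller by more than 2 times in only 2 of the 282 fuzzy positions, against 66 of all 1881.

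**Figure D1:**
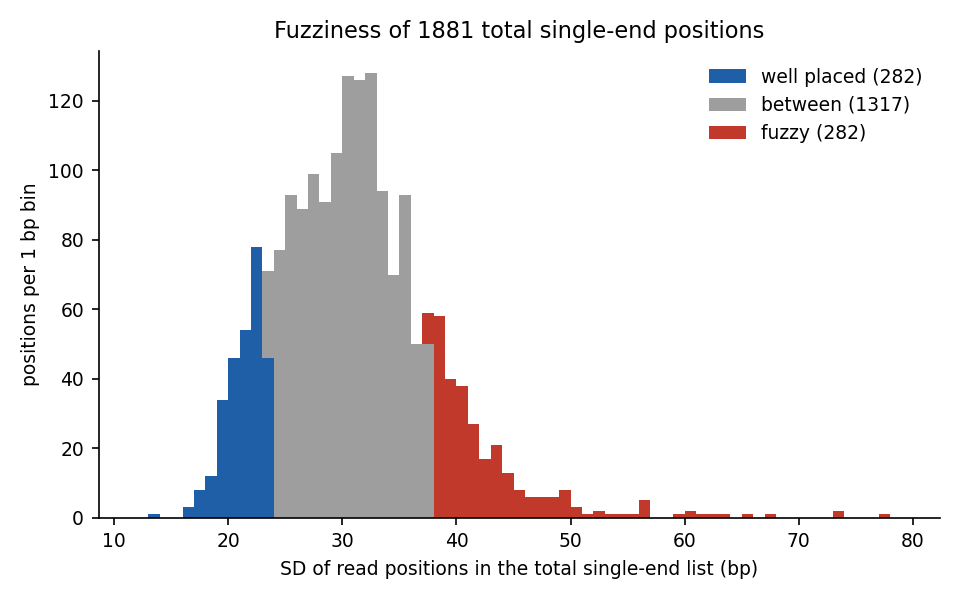
Number of total single-end positions per 1 bp bin of SD, stacked by class. The 282 fuzzy positions form the upper tail from 37.9 to 77.3 bp, continuous with the 1317 positions between the classes.

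Many fuzzy positions were matched by a pair of centres in the paired-end list of total chromatin. That list shares its DNA with the single-end list and is no replicate of it. Of the fuzzy positions, 122 of 282 had 2 or more total paired-end centres within 73 bp, about the distance from a nucleosome's centre to its edge. This is 43.3% (37.6 to 49.1%), against 24.3% of all 1881 positions. A paired-end centre within 20 bp was present at 165 fuzzy positions, or 58.5% (52.7 to 64.1%), against 81.8% of all positions and 280 of 282 well-placed ones. A single paired-end centre within 73 bp was found at 159 fuzzy positions, or 56.4%, against 74.6% of all positions. None was found at 1, against 1.06% of all positions. Of the well-placed positions 44 of 282 had 2 or more centres, or 15.6% (11.8 to 20.3%), a difference of 27.7 percentage points (20.3 to 34.6). With 50 bp in place of 73 bp the difference was 8.51 percentage points, and with 100 bp it was 45.7.

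The pairs also differed in form. Where a fuzzy position had exactly 2 paired-end centres, these lay a median of 75.3 bp apart (112 positions, interval 73.4 to 80.7 bp), against 64.8 bp (61.6 to 66.9 bp) over all 408 positions with such a pair. They flanked the single-end centre in 102 of 112 cases, or 91.1% (84.3 to 95.1%), against 70.6% of the 408 and 182 of 260 at positions between the classes. The mean forward SD of such a pair had a median of 25.3 bp at fuzzy and 24.1 bp at intermediate positions, and a lone paired-end centre at a fuzzy position had 30.8 bp (29.8 to 31.7 bp). Paired-end medians were thus below the single-end forward median of 41.4 bp at fuzzy positions, with or without a pair. The same held over all positions, with 26.5 bp at a lone centre and 24.3 bp at a pair, against 30.0 bp. Since the members were chosen for a high single-end variance, the lower paired-end values are a description only. Around well-placed positions the pairs were only 30.8 bp apart (36 positions, 24.7 to 38.7 bp) and flanked the centre in 4 of 36. In 35 of these 36 at least 1 paired-end row had a fractional identifier, a label with no explanation in the files, against 33 of 112 for the fuzzy positions and 45.1% of the 408.

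Another reading asked for a centre on each side between 20 and 100 bp away and none within 20 bp. Its window is wider than 73 bp, so the positions that met it are not a subset of those counted above. Total paired-end centres met this at 98 of 282 fuzzy positions, or 34.8% (29.4 to 40.5%), against 12.8% of all positions and 1 of 282 well-placed ones. The H2A.Z library, whose reads the rule did not use, met it at 43 fuzzy positions with its single-end list, or 15.2% (11.5 to 19.9%), against 6.06% of all positions. With its paired-end list it met it at 99, or 35.1% (29.8 to 40.8%), against 14.5%. None of the 282 well-placed positions met it in either H2A.Z list, an interval of up to 1.34%, but few of them could. A centre within 20 bp, which this reading forbids, was present at 272 of them in the H2A.Z single-end list. In the H2A.Z paired-end list it was present at 277, and in the total paired-end list at 280. The low well-placed counts thus mostly restate the match within 20 bp.

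**Figure D2:**
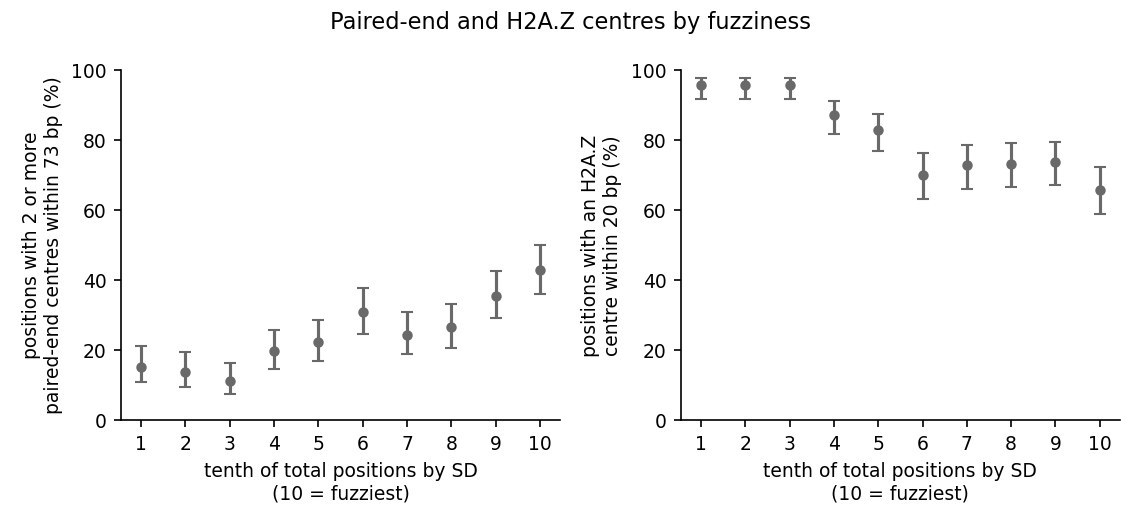
Share of total single-end positions with 2 or more total paired-end centres within 73 bp (left) and with an H2A.Z single-end centre within 20 bp (right), by SD in 10 equal groups, with 95% Wilson intervals. The left share is 15.3% in the group of lowest SD and 43.1% in that of highest SD, and the right share is 95.8% and 66.0%.

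Over 10 equal groups of rising SD the share with 2 or more paired-end centres was lowest in the third, at 11.2%, and highest in the last, at 43.1%. The share with an H2A.Z centre was 95.7 to 95.8% in groups 1 to 3 and 66.0% in the last. It was 87.2% in group 4 and 83.0% in group 5, and in groups 6 to 9 it stayed between 70.2 and 73.9%. Most of the fall thus lay between groups 3 and 6.

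The 5 fuzziest positions show the pairing in detail. The fuzziest was centred at 78341 on chromosome III, with an SD of 77.3 bp, 247 bp from its left and 356 bp from its right neighbour. The total paired-end list had centres at 78311 and 78427 instead, with forward SDs of 29.0 and 32.0 bp. The H2A.Z single-end list had centres at 78315 and 78420, with SDs of 31.8 and 31.6 bp. Both other lists thus placed a pair of much sharper centres at nearly the same bases, 115 and 105 bp apart.

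The second, at 261874, had an SD of 73.4 bp and neighbours 231 bp away on both sides. Paired-end centres lay at 261800 and 261941, and H2A.Z centres at 261797 and 261938, 141 bp apart in both lists. The third, at 130675, had an SD of 73.3 bp with neighbours 329 and 213 bp away. Its paired-end centres were at 130580 and 130722, 142 bp apart, and its H2A.Z centres at 130593 and 130742, 148 bp apart. At these 2 places the single-end model of the total library held 1 wide position where the other lists held 2 centres at almost the distance of neighbouring nucleosomes.

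The fourth, at 99668, had an SD of 67.8 bp and neighbours at the usual 177 and 162 bp. Its paired-end centres at 99598 and 99712 were 114 bp apart, whereas the H2A.Z list kept 1 centre at 99650 that was fuzzy too, with an SD of 47.6 bp. The fifth, at 123671, had an SD of 65.3 bp and neighbours 287 and 326 bp away. Its paired-end centres, at 123659 and 123707, were 48.4 bp apart, and the H2A.Z list had 1 centre at 123632 with an SD of 39.2 bp. In the last case the 3 lists placed the nucleosome differently.

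The fuzziest members had more room between their neighbours than the other members. In the 28 fuzziest members, with SDs of 49.4 to 77.3 bp, the distance between the left and the right neighbour had a median of 365 bp (339 to 431 bp), and it reached 400 bp in 11 of 28. In the other 254 members the median was 312 bp (305 to 320 bp), and 400 bp was reached in 16, against 13.3% of all positions. Such room was not a feature of fuzzy positions alone, since 85 of 282 well-placed positions, or 30.1% (25.1 to 35.7%), also reached 400 bp, within the interval of the 28 fuzziest (39.3%, 23.6 to 57.6%). Total paired-end centres lay on both sides of 17 of the 28, and H2A.Z single-end centres on both sides of 12, while in the other members these counts were 81 and 31 of 254. These 28 were chosen by the same variance as the whole class, after its values were seen.

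The best-placed positions had close matches in the H2A.Z single-end list. The best of them, centred at 213811, had an SD of 13.8 bp and the highest score of the list. Its total paired-end centre was 0.276 bp away and its H2A.Z centre 0.185 bp away with an SD of 12.7 bp. The next 4, at 186325, 52346, 78858 and 94600, had SDs of 16.6 to 17.0 bp. Their H2A.Z centres were 0.648 to 4.70 bp away with SDs of 14.7 to 21.0 bp. Of these 5 positions, 4 were directly beside a distance of 200 bp or more, against 36.5% of well-placed and 20.4% of all positions. Among the 5 fuzziest members, those at 78341, 261874, 130675 and 123671 were beside one too.

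Fuzziness was then compared between libraries. A fuzzy position had an H2A.Z single-end centre within 20 bp less often than other positions did. This held for 194 of 282 fuzzy positions, or 68.8% (63.2 to 73.9%), against 81.4% of all 1881 positions and 96.5% (93.6 to 98.1%) of the well-placed ones, or 272 of 282. The difference between the classes was -27.7 percentage points (-33.5 to -21.8). Nearly every fuzzy position had an H2A.Z centre somewhat farther off. Within 50 bp the shares were 94.0% and 97.5%, a difference of only -3.55 percentage points, and the nearest H2A.Z centre of the 88 unmatched fuzzy positions lay a median of 32.4 bp away. There were 2 or more H2A.Z centres within 73 bp at 36 fuzzy positions, or 12.8% (9.37 to 17.2%), against 5.95% of all positions and 1 well-placed one. Matched centres were a median of 7.61 bp apart for fuzzy (6.23 to 8.96 bp) and 2.00 bp for well-placed positions (1.75 to 2.27 bp), with median signed offsets of 0.00978 and 0.365 bp, H2A.Z minus total. Matched H2A.Z centres, all within 20 bp, thus lay about evenly to both sides of the fuzzy positions. The offsets leave out the 88 unmatched fuzzy positions.

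Fuzziness carried over to the H2A.Z library where centres matched. The matched H2A.Z position had a median SD of 36.2 bp at fuzzy positions (35.6 to 36.8 bp) and 22.9 bp at well-placed positions (22.1 to 23.5 bp), against 30.3 bp over all 1531 matched positions. Its range was 27.0 to 65.9 bp at fuzzy and 10.4 to 58.3 bp at well-placed positions, so the ranges overlapped. Of the 194 matched fuzzy positions 74, or 38.1% (31.6 to 45.1%), met an H2A.Z position among the fuzziest 15% of its own list, against 12.2% of all matched positions and 1 of 272 well-placed ones. None of the 194 met an H2A.Z position among the best-placed 15%, against 18.2% of all matched positions and 185 of 272 well-placed ones. For the 0 of 194, the interval reaches 1.94%. With the H2A.Z paired-end list and its forward SD as the match, the difference in median SD between the classes was 7.44 bp, against 13.3 bp here.

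**Figure D3:**
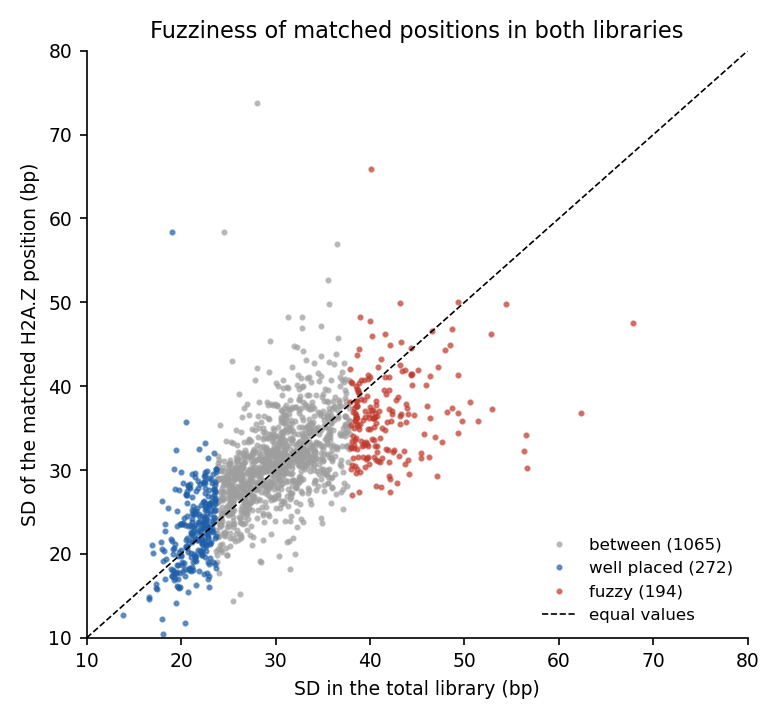
SD of each total single-end position against the SD of its H2A.Z single-end match within 20 bp, 1531 points in 3 classes, with a dashed line of equal values. Most fuzzy points lie below the line, with a median of 36.2 bp in H2A.Z, and the well-placed points have a median of 22.9 bp.

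The match was far from complete. The 74 shared positions were 26.2% of the 282 fuzzy total positions and 26.5% of the 279 fuzzy H2A.Z positions. The SD was lower in H2A.Z than in total chromatin at 165 of 194 matched fuzzy positions, with a median difference of -5.05 bp (-6.16 to -4.16 bp), against 46.5% of all matched positions. Since these members were chosen for a high value in the total list, the reverse view is given beside it. Fuzzy H2A.Z positions had a median SD of 40.4 bp in their own list and 36.5 bp at their matches in the total list. The values were thus lower in the list that did not choose the positions, in both directions. Across all 1531 matched positions Spearman's rho of the SDs was 0.744, and within the 194 fuzzy ones, a narrow range, it was 0.165. These are descriptions over positions that share their libraries.

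Single positions departed from this pattern. The member at 291125, with an SD of 38.1 bp in total chromatin, had the sharpest H2A.Z match of any member, 27.0 bp at 291116, and ranked 1450 of 1881 by score in total chromatin but 218 of 1859 in H2A.Z. The next sharpest H2A.Z matches, 27.4 bp each, belonged to the members at 66836 and 185172, whose SDs in total chromatin were 38.8 and 42.1 bp. The widest H2A.Z match belonged to the member at 14522, with 40.1 bp in total chromatin and 65.9 bp in H2A.Z. It was followed by those at 77332, with 49.3 and 50.0 bp, and 126991, with 43.1 and 50.0 bp.

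Score and fuzziness were tied in both libraries, and the score comes from the same model fit as the variances. Ranks are given as percentiles, 100 being the highest score of the list. Fuzzy positions had a median percentile of 28.4 in the total list (25.1 to 31.7) and well-placed positions 90.9 (89.6 to 92.0). None of the 282 fuzzy positions was in the highest 10% of scores, whereas 152 of 282 well-placed ones and 9.99% of all positions were. Of the fuzzy positions 169 fell in the lowest of 3 equal score classes and 9 in the highest. The 3 members with the highest scores, at 198157, 271204 and 271599, ranked 402, 445 and 474 of 1881. At matched positions the H2A.Z percentile was a median of 36.9 for fuzzy (32.5 to 42.3) and 83.0 for well-placed positions (80.8 to 86.4).

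Values within these score classes were therefore compared. In the lowest class, 108 of 169 fuzzy positions had an H2A.Z centre within 20 bp, or 63.9% (56.4 to 70.8%), and 288 of 453 positions between the classes, or 63.6% (59.0 to 67.9%). At low scores the shares thus differed by less than their intervals. In the middle class they were 76.9% (80 of 104, 68.0 to 84.0%) and 85.7% (438 of 511, 82.4 to 88.5%). In the highest class 6 of 9 fuzzy and 339 of 353 intermediate positions were matched. The median SD in H2A.Z was also set side by side within these classes, which are ranges of score and not matched scores. In the lowest class it was 36.7 bp at fuzzy (35.3 to 37.4 bp) and 31.9 bp at intermediate positions (31.6 to 32.4 bp), and in the middle class 36.2 bp (34.9 to 36.8 bp) and 31.2 bp (30.9 to 31.7 bp). The share with 2 or more paired-end centres was likewise 40.2% (33.1 to 47.8%) against 24.1% (20.3 to 28.2%) in the lowest and 51.0% (41.5 to 60.4%) against 25.6% (22.0 to 29.6%) in the middle class. The direction of the difference in H2A.Z score percentile depended on the score class. In the lowest class the medians were 35.2 at fuzzy (27.1 to 41.6) and 25.6 at intermediate positions (21.9 to 28.7). In the middle class the fuzzy median was lower, 42.5 against 49.2, with overlapping intervals. It was lower in the highest class too, with 6 matched fuzzy positions. Over all scores the fuzzy median was also lower, 36.9 against 51.6. The part of the score in these differences was not tested.

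Neighbours of fuzzy positions were closer than those of well-placed positions, but seldom very close. The nearest centre of the same list was a median of 143 bp away from fuzzy (139 to 148 bp) and 162 bp from well-placed positions (160 to 163 bp). Over all positions this median was 152 bp. Neighbours under 100 bp away were found at 21 of 282 fuzzy positions, or 7.45% (4.92 to 11.1%), against 16.1% of all positions and 3 of 282 well-placed ones. Positions between the classes had most of them, 278 of 1317. The direction depended on the list. With classes drawn from the total paired-end list by forward variance, the median nearest distance was 64.0 bp larger for fuzzy positions, and in the upper 75% of single-end scores the difference was -2.18 bp (-7.17 to 1.95), an interval that includes 0. Both neighbours lay 140 to 200 bp away, the range of a regular array, at 40.4% of fuzzy (34.9 to 46.2%) and 58.5% of well-placed positions (52.7 to 64.1%). The share over all positions was 46.7%, nearer to the fuzzy than to the well-placed share. Forward and reverse read peaks were apart by a median of 126 bp at fuzzy (125 to 128 bp) and 130 bp at well-placed positions (129 to 131 bp).

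Fuzzy positions were often neighbours of each other. Of 282, 142 had at least 1 directly neighbouring fuzzy position, or 50.4% (44.6 to 56.1%), against 26.7% of all positions and 18 of 282 well-placed ones. Well-placed positions stood beside one another more often still, 205 of 282, or 72.7% (67.2 to 77.6%), against 25.0% of all positions. The difference of -22.3 percentage points between the classes was -11.8 in the upper 75% of scores (-20.9 to -2.39). In the paired-end list it was -6.23 (-13.4 to 1.07), an interval that includes 0. A neighbour of a fuzzy position was fuzzy in 166 of 564 cases and well placed in 19. Pairs within a class are counted here from both sides, so the 166 cases are 83 pairs. Intervals on such shares treat both sides as separate and are too narrow. Neighbours with the same identifier in the file shared the fuzzy class in 32.4% of cases (142 of 438, 28.2 to 36.9%), and neighbours with different identifiers in 19.0% (24 of 126, 13.1 to 26.8%). For well-placed positions these shares were 46.7% and 47.8%. The observed share for the fuzzy class was thus higher within 1 identifier, though with intervals that are too narrow. The part of the authors' fitting in it was not tested.

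The 282 fuzzy positions formed 199 runs, of which 140 were single positions, 42 were pairs, 12 held 3 positions and 3 held 4. Both longest runs held 5 positions. One ran from 144549 to 145186 with SDs of 38.2 to 61.3 bp, where 2 of the 5 had an H2A.Z match and neither of these was fuzzy. The other ran from 188968 to 189615 with SDs of 39.1 to 44.0 bp, where all 5 were matched, 2 of them to fuzzy H2A.Z positions. The first of 3 runs of 4 lay between 67240 and 67719. Runs of well-placed positions reached 7.

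Positions around fuzzy ones had slightly wider SDs than average in both libraries, though most were not fuzzy themselves. Of the positions 1 away 29.4% were fuzzy, and of those 2 to 4 away 19.9 to 22.0%, against 15.0% of all positions. One position away from a fuzzy one the median SD was 34.3 bp (33.6 to 35.0 bp), and 4 away it was 32.1 bp (31.6 to 32.7 bp), against 30.7 bp over all positions. Around well-placed positions it was 23.9 bp (23.6 to 24.4 bp) at 1 and 27.4 bp (26.8 to 28.3 bp) at 4 positions away. The matched H2A.Z positions, which the rule did not use, had medians of 32.8 bp (32.3 to 33.3 bp) 1 away from a fuzzy position and 31.7 bp (31.3 to 32.3 bp) 4 away, against 30.3 bp over all. Around well-placed positions they had 25.8 bp (25.1 to 26.4 bp) and 29.3 bp (28.8 to 29.8 bp). At 1 position away, the medians around fuzzy positions differed from the overall value by less than those around well-placed ones, in both libraries. At 4 positions away this held in total chromatin but not in H2A.Z.

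**Figure D4:**
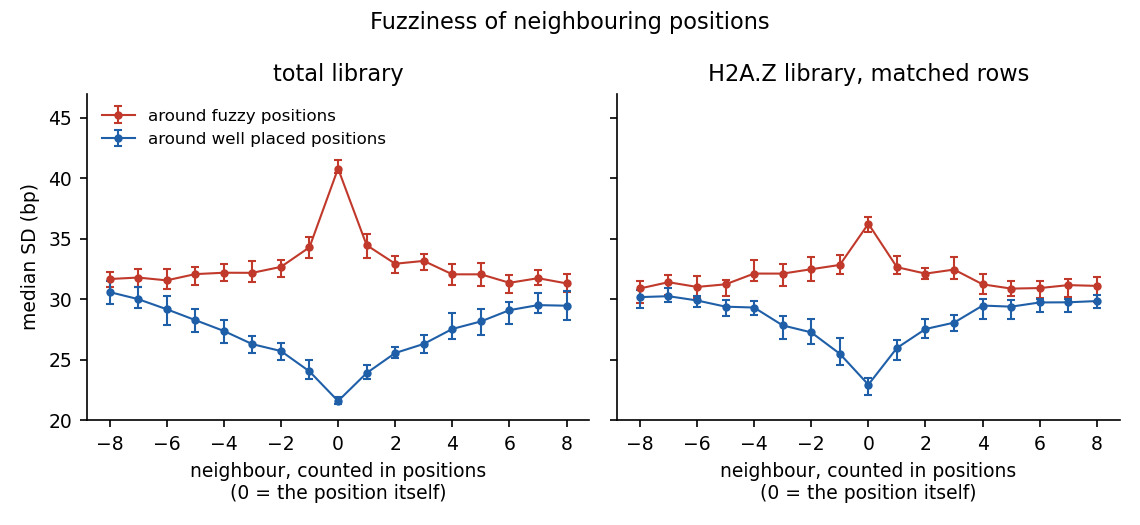
Median SD of the positions up to 8 places left and right of fuzzy and well-placed positions, with 95% order-statistic intervals, in the total library (left) and at matched H2A.Z positions (right). The medians 1 place away are 34.3 and 32.8 bp around fuzzy and 23.9 and 25.8 bp around well-placed positions.

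Place within arrays was measured in positions from the nearest wide distance, 200 bp or more between neighbouring centres. Well-placed positions were concentrated beside such distances. They made up 26.8% of positions directly beside one (103 of 384, 22.6 to 31.5%), 26.0% at the second place, 17.4% at the third and 3.60% (2.23 to 5.77%) from the eighth on, against 15.0% of all positions. Fuzzy positions had another profile. They made up 14.6% of the first place (56 of 384, 11.4 to 18.5%), 7.53% of the second (22 of 292, 5.03 to 11.1%), 10.2% of the third, 23.9% of the sixth (17.1 to 32.4%) and 20.7% from the eighth on (92 of 444, 17.2 to 24.7%), also against 15.0% of all.

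The first place includes positions with a wide distance on both sides, such as the fuzziest member at 78341, 247 and 356 bp from its neighbours. The share of fuzzy positions was lowest at the second place. Its interval lay above the overall 15.0% at the sixth place and from the eighth on. At the seventh place the share was 21.9% (21 of 96, 14.8 to 31.1%), with an interval that includes 15.0%. From the fourth place on together it was 18.6% (16.2 to 21.1%). At the first place the interval included 15.0%. The difference between the first place and places from the fourth on was -3.97 percentage points (-8.06 to 0.548), an interval that includes 0. It was 0.390 in the upper 75% of scores, 0.277 without positions close to a higher-scoring one and 0.0150 with classes of 10%, each with an interval that includes 0. It was -4.65 (-8.67 to -0.193) with forward variance alone, -6.62 (-11.1 to -1.69) with classes of 20% and -7.02 (-11.1 to -1.77) with wide distances of 250 bp or more, where the intervals exclude 0. In the H2A.Z library the median SD of matched positions by the same places was 25.7 bp at the first (24.6 to 26.9 bp), 28.1 bp at the second, 29.6 bp at the third and 32.6 bp from the eighth on (32.1 to 33.5 bp). Positions among the fuzziest 15% of the H2A.Z list made up 7.93% of matched positions at the first place and 17.7% from the eighth on. In the H2A.Z library the first place thus had the lowest median, over its matched positions, 328 of 384 at that place. In total chromatin the first and the second place had nearly equal medians of 27.7 and 27.4 bp. Those cover all positions, matched or not, so the libraries were not compared on the same positions.

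**Figure D5:**
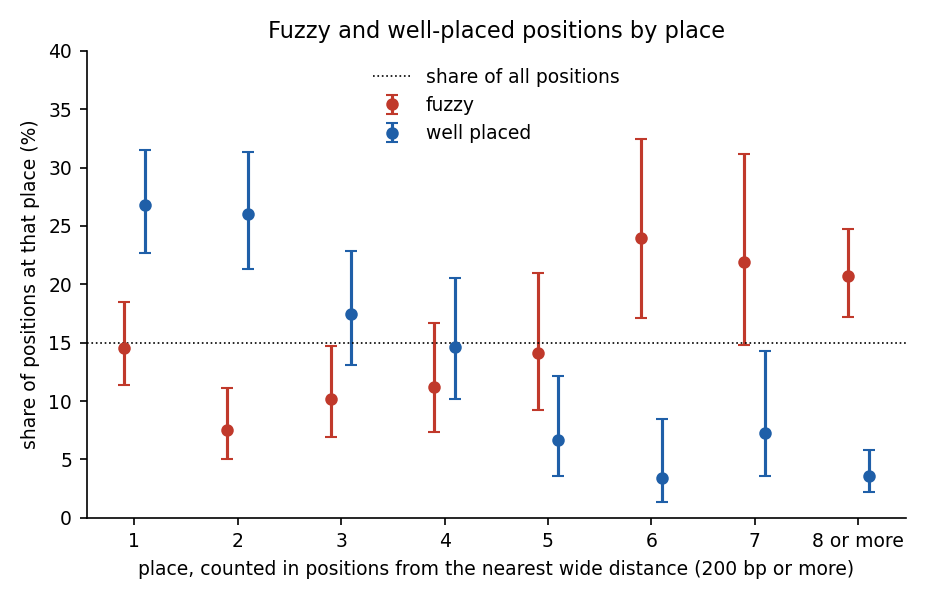
Share of fuzzy and of well-placed positions among all total single-end positions at each place from the nearest wide distance, with 95% Wilson intervals and a dotted line at the share of all positions, 15.0%. Well-placed positions take 26.8% of the first place and 3.60% from the eighth on, and fuzzy positions take 14.6% and 20.7%.

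Along the chromosome fuzzy positions were found in every window of 10 kb, from 3 to 17 per window. The highest shares were 27.1% from 300 to 310 kb (16 of 59, 17.4 to 39.6%), 26.7% from 130 to 140 kb (16 of 60, 17.1 to 39.0%) and 23.9% from 0 to 10 kb (16 of 67, 15.3 to 35.3%). The lowest were 5.00% from 40 to 50 kb (3 of 60, 1.71 to 13.7%), 7.69% from 110 to 120 kb (5 of 65, 3.33 to 16.8%) and 8.33% from 20 to 30 kb (5 of 60, 3.61 to 18.1%). The interval left out the overall 15.0% in 5 of 32 windows for fuzzy positions and in 8 for well-placed ones. Well-placed positions ranged more widely, from 1 to 20 per window. In the first 20 kb fuzzy positions made up 19.8% (13.6 to 28.0%) and well-placed ones 3.45% (1.35 to 8.53%), and in the last 20 kb 19.1% (13.3 to 26.7%) and 6.11% (3.13 to 11.6%). Between the ends the shares were 14.3% (12.7 to 16.1%) and 16.5% (14.8 to 18.4%). Near both ends the depletion of well-placed positions was thus larger than the gain in fuzzy ones, whose intervals overlapped with those of the chromosome between the ends.

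The classes were also drawn from the H2A.Z single-end list itself, a separate library. Its 279 fuzzy positions had 2 or more H2A.Z paired-end centres within 73 bp in 46.2% of cases (40.5 to 52.1%), against 21.2% of all 1859 positions of that list and 4.30% of its 279 well-placed positions (2.48 to 7.37%). The nearest centre was a median of 148 bp away from fuzzy, 161 bp from well-placed and 149 bp from all H2A.Z positions. A fuzzy neighbour stood beside 41.6% of the fuzzy ones (35.9 to 47.4%), against 27.4% of all. Of the well-placed H2A.Z positions 57.3% (51.5 to 63.0%) lay beside a wide distance of their own list, against 29.0% of the fuzzy ones (24.0 to 34.6%), 18.7% of those between the classes (16.7 to 20.9%) and 26.0% of all. In total chromatin these shares were 36.5% (31.1 to 42.3%) and 19.9% (15.6 to 24.9%), against 20.4% of all positions. Fuzzy minus well-placed, these differences had the same sign in both libraries.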

How the data were processed

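Both libraries have a paired-end and a single-end list of nucleosome positions, as deposited by the authors. The series title names PING, which models read positions on both strands. The submitters' processing notes list BWA, SAMtools and sacCer2. Their versions, and any filter or setting, are not stated in the labels used. Per the file headers, centres, peak distances and standard errors are in bp and variances in squared bp. The authors' mixing weight is a fraction, and their deposited score has no stated scale, so its ranks within a list were used. Depth is unknown, since the lists hold no read counts.

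Members and lists were chosen with earlier results of these data known. Positions were ranked by mean variance, and a match was the nearest centre within 20 bp. Python (3.11.15) was used with pandas (2.3.3), numpy (2.4.6), scipy (1.17.1) and matplotlib (3.10.9). Shares carry Wilson intervals, their differences Newcombe intervals, and medians order-statistic intervals, all covering counting error only. Of the total paired-end rows 61 had a reverse variance above 10000 squared bp, so paired-end fuzziness is the forward SD. The matching and counting steps were tested on simulated data. Named positions are the extremes of variance, score, H2A.Z variance, run length and window share, and those nearest the limit. The measure of centres on both sides, the group of 28 fuzziest members and the 400 bp limit were added after seeing the data. No sequence is shown and no gene assigned, because the gene table is of assembly R64.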

Additional observations from a re-analysis of the deposited data

How the results depend on the processing

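There were 81 alternatives to 9 differences, of which 8 are fuzzy minus well-placed positions and 1, the place difference, is the fuzzy share at the first place minus that at places from the fourth on. In 55 the value stayed within the 95% interval of the reported one, in 22 it moved by more without changing sign, 17 of them to a smaller and 5 to a larger difference, and in 4 it changed sign. With members from the total paired-end list, the nearest distance reversed to 64.0 bp from -18.5 bp, sharing of a class between neighbours was -6.23 percentage points, the score percentile -53.8, the H2A.Z percentile -32.6 and the H2A.Z SD 8.08 bp. In the upper 75% of scores sharing was -11.8 points, the H2A.Z match -19.8 points, the nearest distance -2.18 bp and the score percentile -50.4, and the place difference reversed to 0.390 points from -3.97. Once positions less than 100 bp from one of higher score were dropped, it reversed to 0.277 and the nearest distance was -10.9 bp. With classes of 10% the place difference reversed to 0.0150 and the H2A.Z SD was 14.9 bp. The share of fuzzy H2A.Z matches was 30.1 points with 10% and 52.3 with 20%. The H2A.Z list was then also classed at that percent, so its fuzzy class changed in size too. With the H2A.Z paired-end list the match was -42.2 points, the fuzzy share 28.7 points and the SD 7.44 bp. The match was -50.0 points at 10 bp and -3.55 at 50 bp, and 2 or more paired-end centres differed by 8.51 points at 50 bp and 45.7 at 100 bp. Against positions between the classes, a comparison chosen after seeing the data, the match was -12.1 points, the H2A.Z percentile -14.7 and the H2A.Z SD 5.47 bp. The causes were not tested. No paired analysis was possible because each group has 1 library and no test was made. The depth of the libraries is unknown, so how it limits the fuzziness of low-scoring positions cannot be given.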
